A study of Mus musculus with 6 samples.

Results

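The genes described here are 10 regulators of mitochondrial biogenesis, the making of new mitochondria: the coactivator genes Ppargc1a, Ppargc1b and Pprc1, the nuclear receptor genes Esrra, Esrrb, Esrrg, Ppara and Ppard, and the transcription factor genes Nrf1 and Tfam. They were listed by name, with no filter on any measured value, although earlier results of these data were known. All 10 lay among the 15765 protein-coding genes on sequence covered by the data. Methylated DNA was captured with MBD2, a protein that binds methylated CpG, and sequenced (MBD-seq) in cultured primary chondrocytes, the cells of cartilage, from the articular cartilage of the knees of mice aged 3 to 5 postnatal days. The 3 Control cultures carried the genotype Dnmt1 flox, and whether they had Cre is not stated. The 3 cKO cultures carried Prx1-Cre;Dnmt1 flox/flox, so that Cre, driven by a promoter active in limb mesenchyme, removes the enzyme that copies CpG methylation after replication. The floxed allele was thus common to both groups. The series asks which regions depend on Dnmt1. The data analysed here are 1 list of 84111 peaks called on 3 merged datasets, and the list does not say which group these belong to. Its deposited name calls the peaks Dnmt1-mediated DNA methylation regions, but how dependence on Dnmt1 was judged is not stated. A place without a peak therefore cannot be read as unmethylated. No value belongs to a single culture, so no spread between cultures, no depth per culture and no comparison of Control with cKO can be given. All values below describe this 1 list, with no test between groups.

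PGC-1 coactivators have no DNA-binding domain of their own and act by docking on transcription factors, among them the estrogen-related receptors, the PPARs and NRF1. The estrogen-related receptors and NRF1 bind the promoters of nuclear genes for the respiratory chain, and the PPARs those of genes for fatty acid oxidation. TFAM, encoded in the nucleus, is carried into the mitochondrion, where it packs mitochondrial DNA and starts its transcription.

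No regulator gene had a peak at its start. Start sites were listed in a RefSeq promoter table (GRCm38.p6) for 9 of the 10 genes, 14 starts in all; Ppargc1b was not in that table. A peak midpoint lay within 1 kb of a listed start in 0 of these 9 genes, which allows a share of up to 33.3% (3 counts of 9, counting error only). Over all 12543 protein-coding genes with a listed start the share was 7.81% and thus within that limit. None of the 14 promoter windows, each of 250 bases before and 50 after a start, was overlapped by a peak, against 2.96% of 15397 windows of protein-coding genes. The sequences of 4 windows are given to show how far the genes differ in CpG, the dinucleotide whose methylation MBD2 binds. Each runs 5′ to 3′ on the plus strand of GRCm38.p6 and stops before the first base of the gene model, with every CG in capitals.
Nrf1, chr6:30047738-30047984: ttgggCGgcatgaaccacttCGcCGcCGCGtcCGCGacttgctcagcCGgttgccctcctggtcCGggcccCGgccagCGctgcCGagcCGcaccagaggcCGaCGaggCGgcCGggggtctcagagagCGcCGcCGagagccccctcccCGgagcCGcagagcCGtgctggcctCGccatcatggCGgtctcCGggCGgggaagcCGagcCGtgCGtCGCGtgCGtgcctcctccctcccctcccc
Ppard, chr17:28232504-28232753: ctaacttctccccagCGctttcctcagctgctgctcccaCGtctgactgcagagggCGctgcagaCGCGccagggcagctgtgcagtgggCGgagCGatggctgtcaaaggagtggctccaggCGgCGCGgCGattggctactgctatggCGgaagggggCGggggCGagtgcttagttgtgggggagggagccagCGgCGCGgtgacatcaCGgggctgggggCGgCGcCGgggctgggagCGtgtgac
Pprc1, chr19:46056289-46056525: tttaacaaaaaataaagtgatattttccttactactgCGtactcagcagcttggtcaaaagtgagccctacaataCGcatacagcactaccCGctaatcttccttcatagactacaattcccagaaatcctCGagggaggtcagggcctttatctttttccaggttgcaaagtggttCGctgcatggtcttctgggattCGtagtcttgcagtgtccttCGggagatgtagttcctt
Esrrb, chr12:86360867-86361116: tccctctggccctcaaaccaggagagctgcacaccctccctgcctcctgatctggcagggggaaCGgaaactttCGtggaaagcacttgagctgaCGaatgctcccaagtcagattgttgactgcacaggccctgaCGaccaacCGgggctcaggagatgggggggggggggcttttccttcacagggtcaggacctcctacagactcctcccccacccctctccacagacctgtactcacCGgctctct

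The printed stretch of Nrf1 holds 33 CG in 247 bases and that of Ppard 22 in 250, whereas Pprc1 has 7 in 237 and Esrrb 6 in 250. Over the full windows of 300 bases the CG number was highest at the first start of Nrf1, 43, a number reached by 3.79% of all windows, and lowest at its second start, 2. The windows of Ppara (30), Ppard (27), Esrra (25) and Tfam (21) were above the median of all windows, 14. Pprc1 was at that median, and Ppargc1a (5) and both starts of Esrrb (7 each) were below it. The 4 starts of Esrrg had 15, 16, 22 and 19. Windows of all genes were overlapped by a peak most often at 5 to 9 CG, in 8.91% of 2268 windows, and least often at 30 or more CG, in 0.422% of 2604. The regulator gene windows fell in all 7 classes of CG number, and 4 of the 14 lay in the 2 classes of 5 to 14 CG where peaks were most frequent. Of all 15397 windows, these 2 classes held 2268 and 1510. A core of the NRF1 site, GCATGCGC, matched once in the Esrra window and 2 times in the Ppara window, with both strands counted. Of all windows, 3.54% had at least 1 match. Matches on the 2 strands can overlap, so the 2 in Ppara need not be separate sites. An ETS site as bound by GABP, CCGGAAGT, was found once, in the Tfam window, and in 5.40% of all windows. The ERR element TCAAGGTCA and the cAMP response element TGACGTCA were in none of the 14, and in 0.344% and 2.21% of all windows. These are letter matches, and no motif was looked for under the peaks, whose sequence was not used here.

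**Figure D1:**
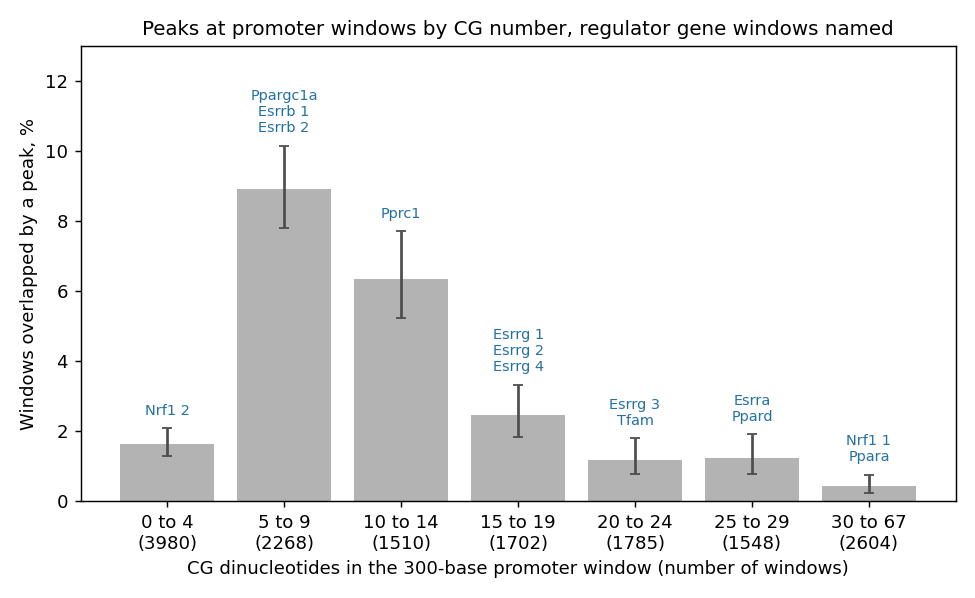
Share of protein-coding promoter windows overlapped by a peak (y axis, %, with 95% Wilson intervals for counting error) in classes of CG number per 300-base window (x axis, number of windows in parentheses). Names mark the class of each regulator gene window, numbered by start; none of the 14 was overlapped, and the share was highest, 8.91%, in the class of 5 to 9 CG.

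All 10 bodies held at least 1 peak midpoint, 83 in total, against 64.7% of the 15765 protein-coding genes. Among genes of similar length to each (the 200 nearest) the share was higher, 85.9% on average over the 10, and long genes such as Ppargc1a and Esrrg had no peakless gene among theirs. The bodies run from 11.1 kb (Esrra) to 661.6 kb (Ppargc1a), so each gene was set beside the 200 protein-coding genes nearest to it in length. By this measure 6 genes had more peaks than the median of their length class, 2 had the median number and 2 had fewer. Over all protein-coding genes 39.0% exceeded the median of their class, but this share was not matched to the lengths of the 10. It includes many short genes with a class median of 0 or 1. For example, 33.0% of genes near 11.3 kb exceeded a median of 1, and 46.0% of genes near 141.8 kb exceeded a median of 6. The excess was largest in proportion for Pprc1, with 5 peaks against a median of 1, and 7.5% of genes of its length (16.0 to 16.8 kb) had as many or more. This count and order hold for peaks as called. Merging peaks within 500 bp joins 3 of the 5 Pprc1 peaks into 1. Ppara and Ppard had 9 peaks each against medians of 3 and 3.5, and in both cases 17.0% of genes of similar length had as many or more. Esrrg had 26 against 12 (16.0% had as many or more), Ppargc1b 9 against 5 (31.0%) and Esrrb 10 against 6 (33.0%). Esrra and Tfam had 1 peak, the median for genes of their size, of which 36.5% and 31.0% had none. Nrf1 had 4 against a median of 5, and Ppargc1a 9 against 12. None of the 10 counts was among the highest 5% of its length class. Per length, the 10 bodies together held 4.55 peaks per 100 kb and all protein-coding genes 5.69. That order turned when Ppargc1a was left out, at 6.36 peaks per 100 kb; without any other single gene the value ran from 4.22 to 4.68.

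**Figure D2:**
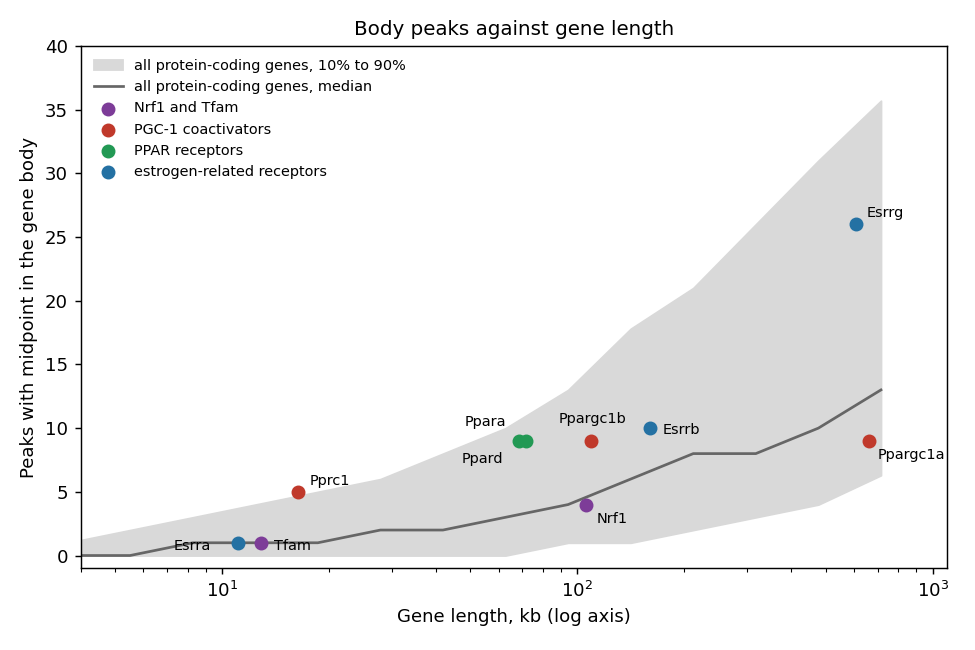
Peaks with their midpoint in the gene body (y axis) against gene length in kb (x axis, log scale) for the 10 regulator genes, coloured by family, over the median (line) and the 10% to 90% range (band) of all protein-coding genes in length bins. Pprc1, with 5 peaks in 16.4 kb, and Ppargc1a, with 9 peaks in 661.6 kb, sit at opposite sides of the median line.

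Ppargc1a encodes PGC-1α, the coactivator induced by cold, fasting and exercise. Its gene model is the longest of the 10 (chr5:51454249-52115853, 661.6 kb, minus strand), and its 9 body peaks gave the lowest density, 1.36 per 100 kb. The listed start lies inside this model, 113.5 kb from the 3′ end. Only 3 peaks lay between that start and the 3′ end, all in the last stretch of the gene at 97.1% to 98.7% of the body, while 6 were spread over the 548.1 kb before it. Set beside genes of the shorter span, Ppargc1a was still below the median, with 3 peaks against 5. The listed start stood 94.1 kb from the nearest peak, the largest such distance among the 9 genes. The longest stretch of the body without a peak midpoint was 269.0 kb, against a median of 150.0 kb in genes of similar length. The peak nearest to the start, at chr5:51472778-51474424, had the highest fold enrichment of this gene, 27.5. It was also the widest of all 83 peaks, with 1647 bp, a width reached by 0.628% of the list. The other 8 folds ranged from 4.90 to 14.4. A further peak, fold 18.4, lay 6.75 kb before the 5′ end of the gene model. The lowest belonged to a peak of another kind at chr5:51973496-51974203. Here the pileup reached 609 reads, the highest of the 83, and the background 123 reads. Fold enrichment is the peak caller's ratio of pileup to background, and both were recovered here from the deposited fold and p-value. Which libraries gave the background is not stated, and it could be those of the other genotype, so a fold here cannot be read as the methylation level of either group.

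Ppargc1b encodes PGC-1β, a close relative of PGC-1α that also drives mitochondrial gene expression. Its body (chr18:61291445-61400756, 109.3 kb) held 9 peaks and neither 10 kb flank held any. The folds were 8.0, 10.0 and 8.1 for 3 neighbouring peaks with gaps of 549 and 405 bp, 11 for the peak at the lowest coordinate, and 17.1 to 23.3 for the other 5. The highest, 23.3, belonged to chr18:61311151-61311605, and the widest peak, at chr18:61357702-61358370, had 669 bp and a fold of 21.4. Both peaks at the low end of the gene also lay in the gene model Gm46627, so they cannot be assigned to Ppargc1b alone. Density was 8.23 peaks per 100 kb, against 1.36 in Ppargc1a.

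Pprc1 encodes PRC, the PGC-1 relative that responds to growth signals. In a body of only 16.4 kb (chr19:46056526-46072909, plus strand) 5 peaks gave 30.5 peaks per 100 kb, the highest density of the 10, and covered 14.3% of the body. All 5 folds were at or above 10: 17.4, 12.3, 10.2, 16.1 and 42.1 from the 5′ to the 3′ end. The first 4 lay in the middle, at 39.2% to 52.1% of the body, with 2 gaps of only 74 and 107 bp between neighbouring peaks; merging peaks within 500 bp joins these 3 into 1. The last, chr19:46069353-46069974 at 80.2% of the body, had the highest fold of all 83 peaks, a value reached by 1.41% of the list. The peak nearest to the start was also the widest, 642 bp, at 6.41 kb. A further peak with a fold of 17.5 lay 2.02 kb behind the 3′ end.

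The estrogen-related receptors are orphan nuclear receptors that bind DNA without a known natural hormone. Esrra, whose product ERRα is the main partner of PGC-1α on respiratory genes, is the shortest gene (chr19:6910977-6922048, 11.1 kb, minus strand). It had a single peak at chr19:6913709-6914245, 72.9% along the body and 7.83 kb from the start, with no other within 10 kb of the gene. This peak was strong, with 264 reads over the lowest background of the 83 peaks and a fold of 36.0, reached by 4.53% of the list.

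Esrrb encodes ERRβ, known as a factor of embryonic stem cells. It had 10 peaks in 160.5 kb (chr12:86361117-86521628, plus strand). In order from the 5′ end the folds were 14.2, 23.9, 6.78, 6.51, 7.33, 25.2, 12.0, 18, 20.6 and 40.4. The 3 folds under 10 lay in the 5′ part and the 5 peaks from 62.8% of the body onwards ran from 12.0 to 40.4. The highest fold was that of the last peak, chr12:86514273-86514889, at 95.6% of the body and reached by 1.97% of the list. The widest, chr12:86469941-86470677 (737 bp), stood over a background of 24.6 reads. The peak nearest to a listed start, chr12:86434276-86434411, was 12.7 kb away and the narrowest of the gene (136 bp). A further peak, fold 9.90, had its midpoint 0.16 kb behind the 3′ end.

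Esrrg encodes ERRγ, the member of the family most tied to oxidative tissues such as heart and brown fat. It held the most peaks, 26 in 606.4 kb (chr1:187608510-188214885, plus strand), or 4.29 per 100 kb. The folds ranged from 6.24 to 41.2 with a median of 10.7, and 11 of the 26 were under 10. The highest, at chr1:187904374-187904903, lay at 48.8% of the body and was followed by a weak peak of fold 8.28 only 503 bp behind it. The widest, chr1:187876509-187877046 (538 bp, fold 35.3), lay at 44.2% of the body. The narrowest of all 83 peaks was also in Esrrg, 72 bp at 68.2% of the body. The peak nearest to a start lay 3.60 kb before the gene, in the overlapping models Gm36388 and Gm46176, and the nearest inside the body was chr1:187661512-187661636, 9.33 kb from the third start with a fold of 6.65. The longest stretch without a peak was 65.9 kb, against a median of 143.4 kb in genes of similar length. Behind the fourth start, which opens the last 217.1 kb of the gene, 12 peaks were counted against a median of 8 in genes of that length. Of those genes, 34.0% had as many or more.

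PPARα and PPARδ are fatty acid-sensing receptors that switch on genes for fatty acid oxidation. Their genes were alike in length and number of peaks, with 12.5 peaks per 100 kb for Ppara (chr15:85734910-85806851, 71.9 kb) and 13.1 for Ppard (chr17:28232754-28301469, 68.7 kb), both on the plus strand. In Ppara the folds from the 5′ end were 9.77, 17.6, 9.36, 8.41, 21.7, 16.8, 31.0, 12.1 and 13.6. The first 3 peaks lay at 10.7% to 16.5% of the body and 5 of the other 6 at 72.7% or beyond. The highest fold was at chr15:85797687-85798303, 87.7% along the body. The widest peak, chr15:85800776-85801630 (855 bp), had 364 reads where the background was 25.8. The first peak, chr15:85742455-85742746, was the nearest to the start, at 6.82 kb. A further peak, fold 19.9, lay 8.77 kb behind the 3′ end, inside the gene Pkdrej.

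In Ppard the folds were 20.2, 6.92, 21.4, 12.6, 9.36, 9.83, 10.7, 11.2 and 38.8 from the 5′ end. The first stood alone at 6.4% of the body, chr17:28236979-28237391, 4.43 kb from the start. It was followed by 5 peaks at 37.6% to 52% and by 3 at 91.2% to 96.0%. The last peak, chr17:28298119-28299278, was both the strongest and the widest of the gene, with 1160 bp and a fold reached by 2.73% of the list. A background above the lowest was found under 4 of the 9 Ppard peaks, between 8.88 and 30.6 reads. Ppard also had a peak of fold 22.9 before its start, 4.48 kb away and inside Def6, a neighbouring gene for a guanine nucleotide exchange factor.

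Nrf1 encodes nuclear respiratory factor 1. Its gene (chr6:30047985-30153458, 105.5 kb, plus strand) was free of peaks over its first 78.3 kb, against a median longest stretch of 48.5 kb in genes of similar length. All 4 body peaks lay at 74.3% of the body or beyond, and 2 more followed within 10 kb of the 3′ end, at 0.73 kb and 6.0 kb, the second inside Mirc35hg. The body peaks were uniform: 322, 285, 397 and 318 bp wide, with folds of 13.4, 12.9, 12.1 and 12.1 and pileups of 98, 94, 88 and 88 reads, each over the lowest background. The one nearest to a start, chr6:30126144-30126465, which also had the highest fold, was 49.98 kb from the second start and 78.3 kb from the first base of the gene. The widest was chr6:30144427-30144823.

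Tfam (chr10:71225468-71238328, 12.9 kb, minus strand) had a single weak body peak, chr10:71234756-71234916, 161 bp wide with 58 reads over the lowest background and a fold of 8.0, and 78.7% of the list had a fold as high. At 3.21 kb it was the closest to a listed start of the 74 body peaks in genes with one. Of 2 further peaks, 1 lay 6.51 kb before the 5′ end of the gene (fold 7.60) and 1 lay 7.54 kb behind the 3′ end (fold 12.8), neither inside another gene.

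**Figure D3:**
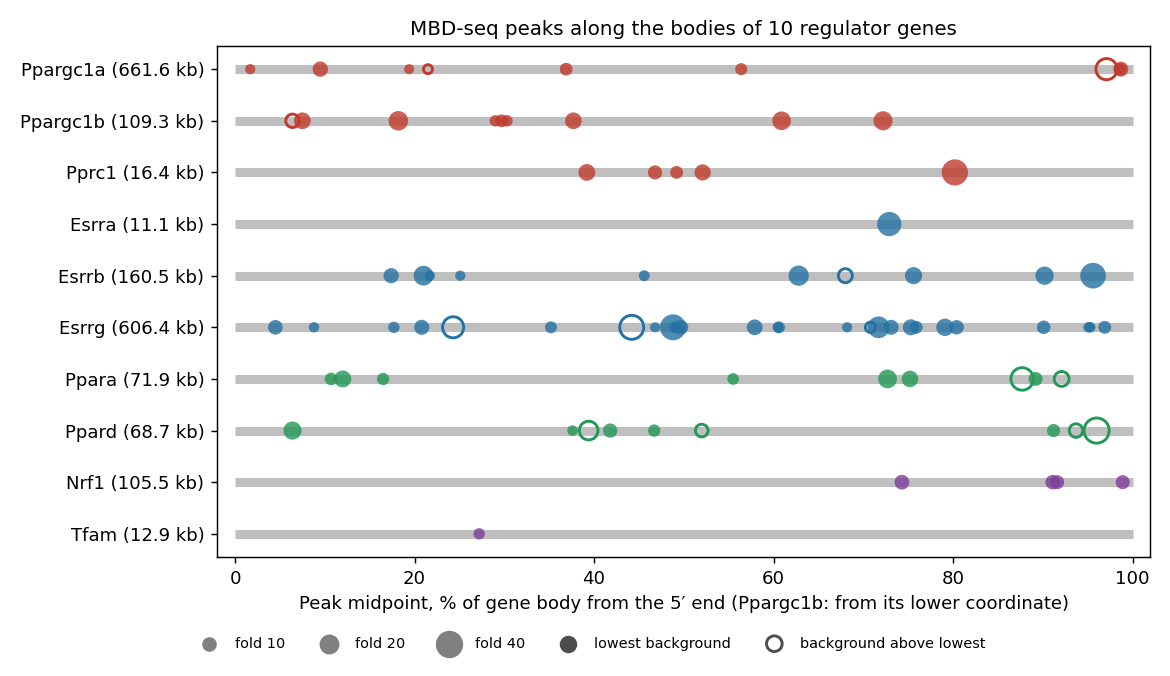
Midpoint of each of the 83 body peaks as a percentage of the gene body (x axis) for the 10 genes (rows, with length in kb). The area of a circle is proportional to fold, and open circles have a background above the lowest of the 83. Nrf1 peaks all lie at 74.3% or beyond, Ppargc1a has 3 peaks at 97.1% to 98.7%, and Pprc1 has 4 between 39.2% and 52.1%.

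Along the bodies of the 9 genes with a listed strand, 33 of 74 peaks (44.6%; 95% Wilson interval 33.8% to 55.9%, counting error only) were nearer to the 5′ than to the 3′ end. Over all protein-coding genes with a strand 38.2% were, a value inside that interval. The last 25% of the body held 33.8% of the peaks (25 of 74) and the first 10% held 6.76% (5 of 74), against 35.7% and 5.66% over all such genes. Peaks of 1 gene are not independent, so these intervals are too narrow for any inference about the gene list. With either end of a gene counted in place of its start, 2 of the 10 genes had a peak within 1 kb, Esrrb and Nrf1, each behind the 3′ end. The same rule was met by 21.8% of all protein-coding genes.

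Fold and width of the 83 peaks were near those of protein-coding genes in general. The median fold was 12.3 (quartiles 8.89 and 17.8), against 13.7 (8.82 and 22.7) over 44414 body peaks of all protein-coding genes. The latter median lay inside the 95% binomial interval of the regulator gene median (10.2 to 13.8), close to its upper end. This interval and those below treat the peaks of 1 gene as independent, so they are too narrow for any inference about the gene list. By family the median folds were 12.3 for the PGC-1 coactivators (23 peaks), 12.8 for the estrogen-related receptors (37), 12.3 for the PPARs (18) and 12.1 for Nrf1 and Tfam (5). Medians of single genes differed more within the first 2 families. They ran from 8.95 in Ppargc1a to 17.1 in Ppargc1b, and from 10.7 in Esrrg (26 of the 37 peaks) to 36.0 in Esrra (1 peak). A fold of at least 20 was found in 19 peaks (22.9%; Wilson interval 15.2% to 33.0%), against 30.9% over all. The median width was 343 bp against 393 bp, and 2 peaks, in Ppargc1a and Ppard, exceeded 1 kb (2.41% against 4.10%).

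In 70 of the 83 peaks (84.3%, Wilson interval 75% to 90.6%) the recovered background was 6.37 reads. This was the lowest value of the 83 peaks and the most frequent of the whole list. Over all protein-coding bodies 85.1% of peaks had it, and the rest had any other value, which can include lower ones. For these peaks the fold depends on the pileup alone, and peaks with the same pileup share a fold: 88 reads gave 12.1 in both Nrf1 and Ppara. The other 13 peaks had backgrounds from 7.41 to 123 reads. They were wider, with a median of 708 bp against 314 bp, and had higher pileups, 307 reads against 89 reads, but like folds, 13.6 against 12.2. All protein-coding body peaks showed the same split, with medians of 663 and 360 bp and of 327 and 99 reads. By family, 6 of 18 PPAR peaks (33.3%; Wilson interval 16.3% to 56.3%) had a background above the lowest, 4 of 37 in the estrogen-related receptors (10.8%), 3 of 23 in the PGC-1 coactivators (13%) and 0 of 5 in Nrf1 and Tfam. Over all protein-coding body peaks 14.9% had any background other than 6.37 reads, a share below the PPAR interval. The family was singled out after its values were seen, the peaks come from 2 genes, and this difference was not tested.

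**Figure D4:**
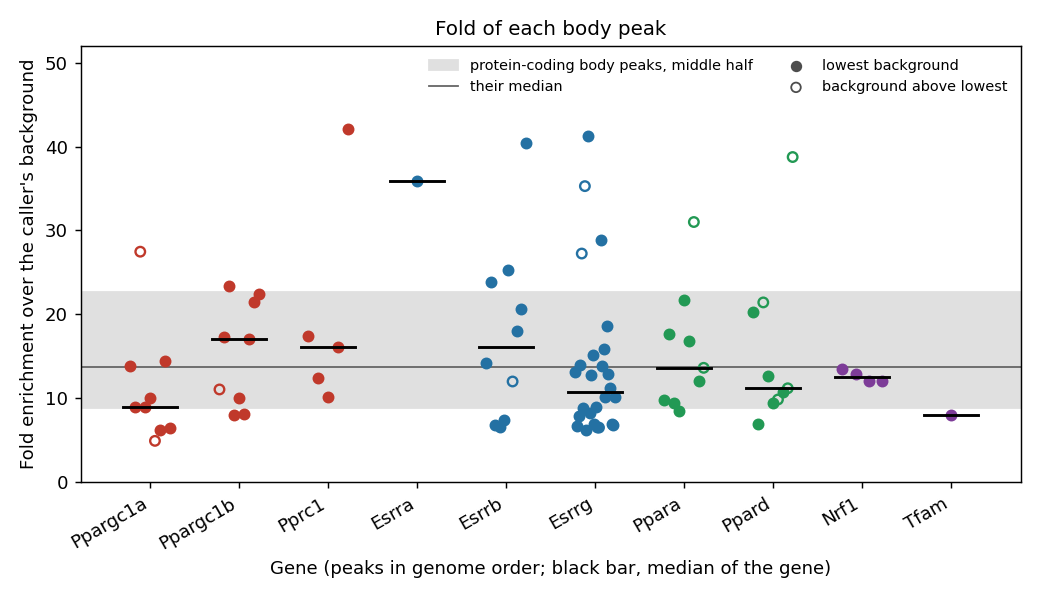
Fold enrichment (y axis) of each body peak for the 10 genes (x axis, peaks in genome order), with the gene's median as a black bar. Open circles mark a background above the lowest of the 83 peaks. The band and line give the middle 50% and the median, 13.7, of all protein-coding body peaks; Pprc1, Esrra, Esrrb, Esrrg and Ppard each have a peak above 35.

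Other genes of the pathway were taken from 3 lists of 45 genes, 42 of them on covered sequence. Over all protein-coding genes 64.7% had a body peak, 39.0% exceeded the median of their length class and 7.81% of those with a listed start had a peak within 1 kb of it. These shares are over genes of all lengths and were not matched to the lengths of the listed genes. Of 13 genes for the transcription and replication of mitochondrial DNA, 10 had a body peak and 4 exceeded the median of their length class. Top1mt, a mitochondrial topoisomerase, had the most (8 in 21.8 kb, median 1), and Twnk, the mitochondrial DNA helicase, the highest fold (43.1). Among 14 other nuclear transcription factors of respiratory genes, 13 had a body peak and 3 exceeded their median. Gabpa, the DNA-binding subunit of GABP, and Mef2c had the most (4 each, medians 2 and 6), and Gabpa the highest fold (44.9). All 15 receptor partners, coactivators and corepressors had a body peak and 10 exceeded their median. Rxrg, a heterodimer partner of the PPARs, had a peak 0.1 kb from its listed start, which made 1 of the 36 genes with a listed start in these lists. The median folds were 12.9, 14.9 and 14.8 for the lists in this order, against 12.3 for the 10 regulator genes and 13.7 for all.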

How the data were processed

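Per the submitters' processing notes, fastp, Bowtie2 and MACS2 were used with the builds mm10 and GRCm38; parameters and the control of the peak calling are not given in the sources used here. The peak names say that 3 datasets were merged with Samtools. The deposited list gives for each peak a fold enrichment (a ratio over the caller's background), a −log10 p, a −log10 q (lowest 20.004) and a score, which is 10 times that −log10 q without its decimals. It covers chromosomes 1 to 5 and 10 to 19 and chromosome 6 up to 88.8 Mb; 1 incomplete line was left out.

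Pileup and background were solved from fold = (pileup + 1)/(background + 1) and the Poisson tail (tolerance 1% of the spacing between whole pileups), which matched 99.97% of peaks and all 93 within 10 kb of the regulator genes; the method was tested on simulated data. Genes came from a RefSeq table of GRCm38.p6, beyond the first 3 Mb of a chromosome, and strands and starts from its promoter table. It gives no exons, so exon and intron were not told apart. Peaks were placed by midpoint; positions are 1-based. Named peaks were, for each gene, those of highest fold, largest width and least distance to a start; in each pathway list, the genes with most peaks, highest fold or a peak within 1 kb of a start. A gene that this rule names is not reported here. The genes and lists were chosen with earlier results of these data known. Python 3.11.15, numpy 2.4.6, scipy 1.17.1 and pandas 2.3.3 were used.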

Additional observations from a re-analysis of the deposited data

How the results depend on the processing

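No paired analysis was possible because single cultures have no values here, and so no replicate could be left out either. Of 52 recomputed values, 49 stayed within 1.5 times a count or within the 95% interval of a share or median. Some of the 49 could not have moved. A count of 0 starts with a peak stays 0 in any subset of the peaks or in a narrower window. Leaving out 1 gene when all 10 have a body peak must give 9. Of the 3 that moved, those from peaks of at least the median fold of the list did so by construction. This filter left 41 peaks in and around the 10 genes, with a median fold of 20.2 in the bodies. The other came from a changed definition. Counting either end of a gene, over all 10 genes in place of the 9 with a listed start, gave 2 genes with a peak within 1 kb in place of 0. The number of genes above the median of their length class was 6 or 7 under 9 alternatives, among them 1 chosen after seeing the data, in which Ppargc1a was counted from its listed start. A start window of 2 kb gave 0 genes. Flanks of 5 kb and 20 kb gave 88 and 113 peaks in place of 93. At the median fold 9 of 10 genes kept a body peak. The depth of single cultures is unknown.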

Other observations

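Around all 15397 listed starts of protein-coding genes, peak density was 3.34 per 100 kb at 0.5 to 1 kb, 4.11 within 0.5 kb, and 7.32 at 10 to 15 kb. The median distance from a start to the nearest peak was 7.89 kb over all genes (the nearest start of each gene) and 6.82 kb over the 9 regulator genes. The regulator genes lay on both sides of that value: 3.21 kb for Tfam, 4.10 kb for Esrrg, 4.43 kb for Ppard, 6.41 kb for Pprc1, 6.82 kb for Ppara and 7.83 kb for Esrra, but 12.7 kb for Esrrb, 49.98 kb for Nrf1 and 94.1 kb for Ppargc1a.

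Promoter windows overlapped by a peak had a median of 8.5 CG and windows without a peak 15. Windows of 0 to 4 CG were overlapped in 1.63% of cases, fewer than windows of 5 to 9 CG.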
